A study of Mus musculus with 14 samples.

Results

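Maternal mRNA translation and decay regulators were examined in single mouse embryos made by somatic cell nuclear transfer (SCNT). The 10 genes were Eif4e1b, Cpeb1, Btg4, Pabpn1l, Zar1, Zar1l, Ybx2, Cnot6l, Cnot7 and Zfp36l2, out of 20642 genes or unnamed entries in the files. They were chosen by name as known regulators, with earlier results of these data known. Eif4e1b was selected on its low level after TSA(0-8h)+VC(8-15h), compared with control, so its values in that comparison are a description with no test. RefSeq entries of 1 gene were summed, which gave 15 entries for the 10 genes.

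A growing oocyte stores mRNA that the early embryo uses before its own genome is active. The stored mRNA is kept quiet with short poly(A) tails and bound repressor proteins, is translated when its tail is lengthened, and is later removed by shortening of the tail. Genes of this group act at each of these steps, and most are known for their activity in oocytes and early embryos.

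The embryos were of the B6D2F1 strain and received donor nuclei from cumulus cells, the somatic cells that surround the oocyte. The samples were 14 single embryos at the two-cell stage, taken 28 h after activation. All were activated with strontium in the presence of cytochalasin B and cultured in medium with deionized bovine serum albumin, the 3 control embryos without either small molecule. Trichostatin A (TSA), an inhibitor of histone deacetylases, was given at 50 nM from 0 to 8 h. Vitamin C (VC), a cofactor of dioxygenases that demethylate histones and DNA, was given at 10 µg/ml from 0 to 8 h or from 8 to 15 h. The groups were control (n = 3), VC(0-8h) (n = 1), VC(8-15h) (n = 2), TSA(0-8h) (n = 3), TSA(0-8h)+VC(0-8h) (n = 2) and TSA(0-8h)+VC(8-15h) (n = 3). No group of fertilized embryos was analysed here. Each RNA sample was amplified from part of 1 embryo's RNA, so the spread between embryos holds both biological and amplification differences.

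Values are RPKM, reads scaled to transcript length and to the reads of the library, as the authors deposited them. Between 3021540 and 13589389 reads per embryo were counted, and between 3130 and 6231 genes reached 1 RPKM. The libraries came from 3 sequencing pools of 5, 6 and 3 embryos, and each pool held 1 embryo of each of the 3 groups with n = 3. Oocyte markers summed to between 219 and 1512 RPKM in control embryos, between 1212 and 1991 in TSA(0-8h) embryos and between 653 and 1017 in TSA(0-8h)+VC(8-15h) embryos, with 5 to 10 of the 12 at 1 RPKM or more. Two-cell markers summed to between 7.58 and 317 RPKM in control embryos, between 179.5 and 411 in TSA(0-8h) embryos, between 342 and 619 in TSA(0-8h)+VC(8-15h) embryos and up to 1112 in the others, with 3 to 11 of the 11 found at 1 RPKM or more. Of 12 markers of cumulus cells, at most 2 reached 1 RPKM in any embryo, their sum was between 0 and 144 RPKM, and Inhba, Sult1e1, Fshr and Inha were at 0 in all embryos.

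Annotated 3′ ends of these genes are shown first. The cytoplasmic polyadenylation element (CPE), the site that Cpeb1 recognises, lies near the 3′ end of mRNAs whose tails are lengthened in the oocyte. The last 100 bases of the 3′ UTR were searched on the transcript strand for the CPE (TTTTAT or TTTTAAT), in the longest GENCODE transcript of each gene in mm9. Of 18458 genes with such a window, 17.6% held a CPE. Of the 9 regulators with a window, 3 held one: Btg4, Cnot7 and Ybx2. The CPE is in capitals in these stretches.
Btg4, chr9:50927903-50927932, plus strand: gataaatccctTTTTATgtctttttaaaag
Cnot7, chr8:41578391-41578420, minus strand: cttaaggtacaTTTTATatcaataaaaata
Ybx2, chr11:69755035-69755064, plus strand: ctctgaagccaTTTTATgaactgtcatgtg

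The window of Eif4e1b, the gene selected on its low level after the combined treatment, held no match to the CPE letters. Its end is given with the polyadenylation signal (AATAAA or ATTAAA, in 78.7% of all windows), at which the nuclear tail is added, in capitals.
Eif4e1b, chr13:54889789-54889812, plus strand: ttctgtatctaAATAAAcacttct

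A binding motif of Zfp36 proteins (TATTTAT, in 4.29% of windows) was found in the window of Cnot7 only, and a Pumilio motif (TGTANATA, in 4.5%) in none of the 9. The windows of Btg4 and Ybx2 held no polyadenylation signal, so the annotated end may not be the end in use. The transcripts searched can differ from the entries measured, as for Eif4e1b, with 2131 bases against 1413 and 859. A match is a run of letters, not a measured site, and Zar1l had no window of this length in the annotation.

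The 10 genes differed widely in level in these two-cell embryos. Eif4e1b, Btg4, Cnot7 and Cnot6l were above 20 RPKM in all 14 embryos. Ybx2, Zfp36l2 and Cpeb1 were present in some embryos and near 0 in others of the same treatment. Zar1 and Pabpn1l were near 0 in most embryos, and Zar1l was at 0 in all 14. In order of the mean over 14 embryos, Eif4e1b was at 1287 RPKM, Btg4 at 353, Cnot6l at 308, Cnot7 at 217, Ybx2 at 127, Zfp36l2 at 20.2, Zar1 at 15.7, Pabpn1l at 8.57 and Cpeb1 at 7.34. The ranges of neighbours in this order overlapped, including those of Btg4, Cnot6l and Cnot7. RPKM is a share of each library, so less of an mRNA in an embryo and more of other RNA cannot be told apart.

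**Figure D1:**
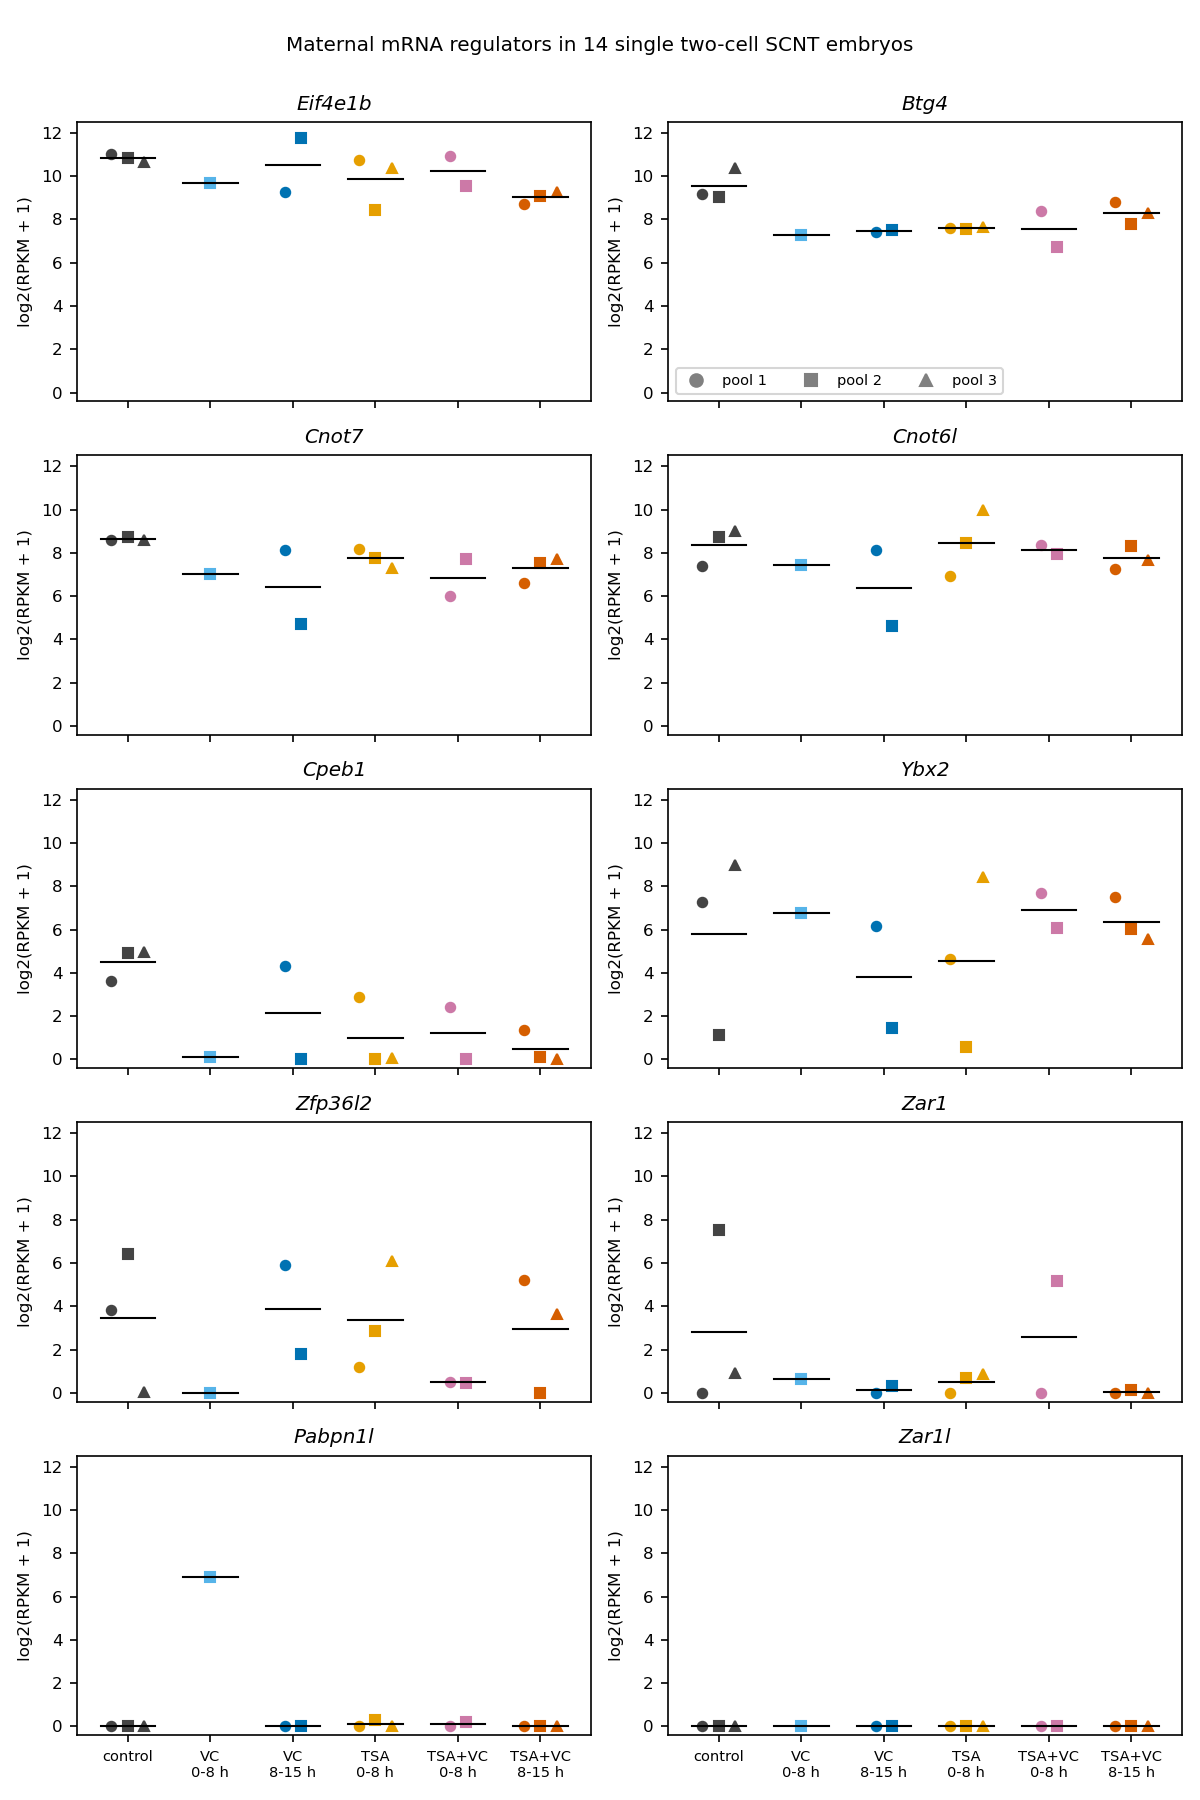
Level of each of the 10 genes in each embryo, as log2(RPKM + 1), by treatment. Points are single embryos, their shape gives the sequencing pool and lines are group means. The 3 control embryos lie above all 11 treated embryos for Btg4 and Cnot7, and Zar1l lies at 0 throughout.

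Eif4e1b encodes an oocyte form of the cap-binding protein eIF4E, which binds the mRNA cap and takes part in repression of stored mRNA with Cpeb1. It lies on chr13:54885359-54889820 (mm9, plus strand). It was at 2061, 1800.3 and 1621 RPKM in control replicates 1, 2 and 3, where it ranked 7, 14 and 18 among all genes. In TSA(0-8h)+VC(8-15h) replicates 1, 2 and 3 it was at 420.3, 536 and 624 RPKM. The groups did not overlap, and the highest value was 1.27 times the lowest in control and 1.48 times in TSA(0-8h)+VC(8-15h) embryos. The log2 difference was -1.80 (SE 0.46), given with no test because the gene was chosen for it. Within pools 1, 2 and 3, the log2 difference was -2.29, -1.75 and -1.38. Control replicates 1, 2 and 3 had 4883, 3613 and 5033 genes at 1 RPKM or more. TSA(0-8h)+VC(8-15h) replicates had 5134, 5161 and 5350, and the part of this in the Eif4e1b values was not tested.

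In the other treatments, Eif4e1b ranged from 343 to 3424 RPKM. TSA(0-8h) replicates 1, 2 and 3 were at 1687, 343 and 1342 RPKM. VC(8-15h) replicates 1 and 2 were at 624 and 3424 RPKM, a 5.49-fold range within 1 group. TSA(0-8h)+VC(0-8h) replicates 1 and 2 were at 1964 and 743 RPKM, and the VC(0-8h) embryo was at 830.5 RPKM. Of the 11 treated embryos, 8 were below all control embryos, among them the TSA(0-8h)+VC(8-15h) embryos on which the gene was chosen. VC(8-15h) replicate 2 was above all control embryos, and TSA(0-8h) replicate 1 and TSA(0-8h)+VC(0-8h) replicate 1 lay among them. The control embryos also had a part in the choice, so these counts are a description. In the 8 embryos that had no part in the choice of the gene, the 5 with VC averaged 10.24 and the 3 with TSA(0-8h) alone 9.85 on the log2(RPKM + 1) scale. The difference of 0.40 did not pass a two-sided exact permutation test (p = 0.607), for which the smallest possible p was 0.0179. This value turned to -0.48 with median-ratio scaling and to -0.31 without TSA(0-8h) replicate 2.

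Both RefSeq entries of Eif4e1b were lower in TSA(0-8h)+VC(8-15h) than in control embryos, again as a description. The entry NM_001033269, of 1413 bases, was at 447, 378 and 548 RPKM in control replicates and at 124, 163 and 33.5 RPKM in TSA(0-8h)+VC(8-15h) replicates. The entry NM_001039683, of 859 bases, was at 1614, 1422 and 1074 RPKM in control replicates and at 296, 373 and 590.0 RPKM in TSA(0-8h)+VC(8-15h) replicates. The longer entry carried 5.38% to 47.6% of the gene's RPKM, with a median of 24.2%. Reads shared by 2 entries may have been split or given to 1 of them, which the sources used here do not state.

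**Figure D2:**
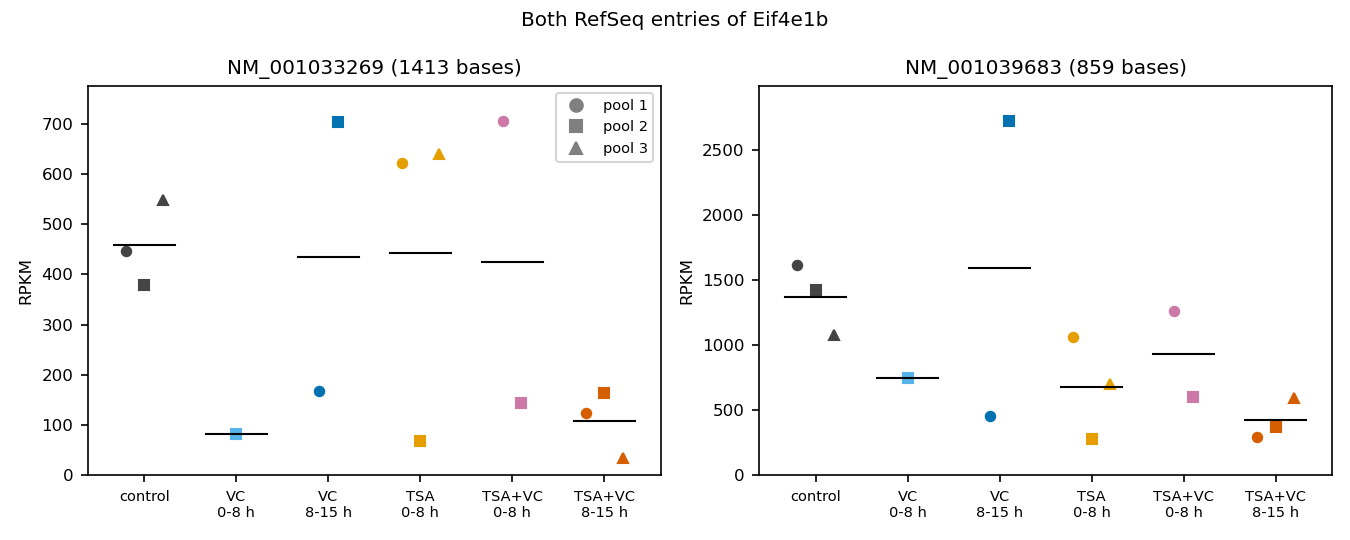
RPKM of the longer and the shorter RefSeq entry of Eif4e1b in each of 14 embryos, by treatment. Points are embryos, their shape gives the pool and lines are group means. In both entries the 3 TSA(0-8h)+VC(8-15h) embryos lie below the 3 control embryos.

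The genes whose pattern over the 14 embryos was most like that of Eif4e1b were sought among 5502 genes with a mean of at least 10 RPKM. Pearson correlations of log2(RPKM + 1) were 0.75 for Madd, 0.71 for Rps25, 0.71 for Zfand6, 0.69 for Brwd1 and 0.68 for Arfgef1. They are descriptions over 14 embryos that share pools and differ in depth, and the genes were picked as the highest of the 5502. The 14 include the control and TSA(0-8h)+VC(8-15h) embryos on which Eif4e1b was chosen. The levels of these genes in those 2 groups are therefore no separate result. Madd was at 0.427 to 26.0 RPKM in control and 0 to 3.85 in TSA(0-8h)+VC(8-15h) embryos, Rps25 at 0.108 to 71.98 and 0.752 to 1.68, and Zfand6 at 0.615 to 67.7 and 0.155 to 1.81, so all 3 were below 1 RPKM in an embryo of each group. Brwd1 was at 104 to 175 RPKM in control and 64.5 to 125 in TSA(0-8h)+VC(8-15h) embryos. Arfgef1 was at 165 to 294 and 67.5 to 146 RPKM, lower without overlap, as were 5.72% of the genes tested in that comparison.

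Btg4 encodes an adaptor that brings the CCR4-NOT deadenylase to maternal mRNA. The gene lies on chr9:50924106-50927980 (mm9, plus strand) and carries the CPE stretch given above. It was at 579, 519.6 and 1338 RPKM in control replicates 1, 2 and 3. TSA(0-8h) embryos were at 195, 186 and 198 RPKM, VC(8-15h) embryos at 169 and 178, and the VC(0-8h) embryo at 155. TSA(0-8h)+VC(0-8h) embryos were at 329.9 and 106 RPKM and TSA(0-8h)+VC(8-15h) embryos at 451, 221 and 318. Each of the 11 treated embryos was below each control embryo.

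The log2 fold change of Btg4 from control was -1.93 (SE 0.79) with TSA(0-8h), at an unadjusted limma p of 0.0203 and an adjusted p of 0.227. With TSA(0-8h)+VC(8-15h) it was -1.22 (SE 0.61, adjusted p = 0.315). Inside the pools, the differences ran from -2.75 to -1.48 with TSA(0-8h) and from -2.07 to -0.36 with TSA(0-8h)+VC(8-15h). Their sign is no further check, since each treated embryo was below each control embryo. The 3 TSA(0-8h)+VC(8-15h) embryos were each above the 3 TSA(0-8h) embryos. That difference was 0.71 on the log2 scale (SE 0.73, adjusted p = 0.663), and it turned to -0.61 when libraries were scaled by median ratios.

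Cnot7 and Cnot6l encode catalytic deadenylase subunits of CCR4-NOT, the complex that shortens poly(A) tails. Cnot7, on chr8:41577894-41601201 (mm9, minus strand), was at 379.7, 420.1 and 383 RPKM in control replicates. TSA(0-8h) embryos were at 287, 219 and 156 RPKM and TSA(0-8h)+VC(8-15h) embryos at 97.8, 183 and 212. VC(8-15h) embryos were at 277 and 25.4 RPKM, TSA(0-8h)+VC(0-8h) embryos at 62.5 and 208, and the VC(0-8h) embryo at 129. Here too each treated embryo was below each control embryo. The log2 fold change from control was -0.87 (SE 0.85, adjusted p = 0.713) with TSA(0-8h) and -1.33 (SE 0.70, adjusted p = 0.346) with TSA(0-8h)+VC(8-15h). Cnot7 overlaps Vps37a and Zdhhc2 on the other strand in the annotation, and the strand of counting is not given in the sources used here.

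Of 7600 genes with at least 1 RPKM in 3 or more embryos, 23 (0.303%) had all 3 control embryos above all 11 others, and Btg4 and Cnot7 were 2 of these. In 0.395% of the genes the control embryos were below all others. This count was chosen after the values were seen and has no test, and no gene of the pathway list described below was among the 23. Beside it, the summed oocyte markers of the treated embryos ranged from 607 to 1991 RPKM, against 219 to 1512 in control embryos, and their part in the levels of Btg4 and Cnot7 was not tested.

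Cnot6l, on chr5:96499352-96593190 (mm9, minus strand), did not separate control embryos from the others. It was at 167, 428 and 511 RPKM in control replicates, 123, 355 and 996 in TSA(0-8h), and 149.6, 322 and 205 in TSA(0-8h)+VC(8-15h). VC(8-15h) embryos were at 282 and 23.8 RPKM, TSA(0-8h)+VC(0-8h) embryos at 326 and 242, and the VC(0-8h) embryo at 174. VC(8-15h) replicate 2 was the lowest of the 14 embryos for both Cnot7 and Cnot6l, and it was the highest for Eif4e1b. The log2 fold change of Cnot6l from control was 0.08 (SE 0.88) with TSA(0-8h) and -0.63 (SE 0.73) with TSA(0-8h)+VC(8-15h), at adjusted p of 0.984 and 0.702 by limma. Its longer entry carried 13.0% to 99.1% of the gene's RPKM.

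Cpeb1 encodes the protein that binds the CPE and switches stored mRNA between repression and tail lengthening. It lies on chr7:88491912-88600351 (mm9, minus strand), and 1 of its 3 RefSeq entries held all of its reads. It was at 11.3, 29.5 and 30.4 RPKM in control replicates, from 190 to 1287 reads. In TSA(0-8h)+VC(8-15h) replicates it was at 1.55, 0.083 and 0 RPKM, from 21, 2 and 0 reads. TSA(0-8h) replicates were at 6.28, 0 and 0.055 RPKM, TSA(0-8h)+VC(0-8h) replicates at 4.43 and 0, VC(8-15h) replicates at 19.1 and 0, and the VC(0-8h) embryo at 0.075. A level of 0 allows up to 0.071 to 0.319 RPKM, which is what 3 reads are worth at these depths, and covers counting error only. VC(8-15h) replicate 1 was the 1 treated embryo within the control range.

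Cpeb1 had the largest log2 fold changes from control among the members tested. The change was -4.02 (SE 1.28) with TSA(0-8h)+VC(8-15h), at an unadjusted limma p of 0.00603 and an adjusted p of 0.112. With TSA(0-8h) it was -3.53 (SE 1.62), at an unadjusted p of 0.0384 and an adjusted p of 0.296. These fold changes depend on the pseudocount of 1, since several embryos are at or near 0. Cpeb1 entered both tests through the control group alone, where it was high, and such a filter favours a drop. With filters blind to the groups, the adjusted limma p with TSA(0-8h)+VC(8-15h) was 0.568 (1 RPKM in any 3 embryos) or 0.725 (no filter). With TSA(0-8h) it was 0.921 or 0.766.

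Ybx2 encodes MSY2, a Y-box protein that coats and stabilizes mRNA in oocytes. It lies on chr11:69749298-69755107 (mm9, plus strand). It was at 152, 1.21 and 509 RPKM in control replicates, 24.3, 0.49 and 347 in TSA(0-8h), and 181, 64.2 and 45.7 in TSA(0-8h)+VC(8-15h). VC(8-15h) embryos were at 70.0 and 1.75 RPKM, TSA(0-8h)+VC(0-8h) embryos at 209 and 66.9, and the VC(0-8h) embryo at 107. The 3 embryos under 2 RPKM were replicate 2 of control, TSA(0-8h) and VC(8-15h), which all came from pool 2. These embryos had between 3130 and 3613 genes at 1 RPKM or more, the fewest of the 14. Over the 14 embryos, the Pearson correlation of Ybx2 with that number of genes was 0.63, a description over libraries that differ in depth. For the other members with reads it ran from -0.42 for Eif4e1b to 0.31 for Pabpn1l. The log2 fold change from control was 0.56 (SE 1.58, adjusted p = 0.903) with TSA(0-8h)+VC(8-15h), and its sign turned with the scaling and when control replicate 2 was left out.

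Zfp36l2, on chr17:84583271-84587287 (mm9, minus strand), encodes a zinc finger protein that binds AU-rich mRNA and directs its decay. It was at 13.3, 84.6 and 0.042 RPKM in control replicates, 1.31, 6.16 and 68.1 in TSA(0-8h), and 36.0, 0 and 11.5 in TSA(0-8h)+VC(8-15h). VC(8-15h) embryos were at 58.8 and 2.50 RPKM, TSA(0-8h)+VC(0-8h) embryos at 0.434 and 0.389, and the VC(0-8h) embryo at 0. Each group of 3 held both an embryo above 10 RPKM and 1 below 2. The log2 fold change with TSA(0-8h) was -0.05 (SE 2.11, adjusted p = 0.995).

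Zar1 and Zar1l encode RNA-binding proteins that act in storage of maternal mRNA, and both lie on chromosome 5 (mm9, minus strand), at chr5:72968353-72972323 and chr5:151309630-151320739. Zar1 was at 181 RPKM in control replicate 2, from 1568 reads, and at 34.6 RPKM in TSA(0-8h)+VC(0-8h) replicate 2, from 570 reads. The other 12 embryos were between 0 and 0.877 RPKM. Both embryos with clear signal were in pool 2. Zar1l had 0 reads in all 14 embryos.

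Pabpn1l encodes an oocyte poly(A)-binding protein that works with Btg4 in the decay of maternal mRNA. It lies on chr8:125143371-125146639 (mm9, minus strand), where the annotation has Gm20388 on the other strand. It was at 119.6 RPKM in the VC(0-8h) embryo, from 583 reads. Of the other embryos, 2 had 2 reads each (0.224 and 0.133 RPKM) and the rest had 0. A level of 0 allows up to 0.193 to 0.868 RPKM for this gene. With 1 embryo in the VC(0-8h) group, the value cannot be set against a spread.

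The 3 comparisons of 3 embryos with 3 asked what the combined treatment, TSA alone, and late VC on top of TSA did to these genes. They share embryos: the control embryos enter the first 2 and the TSA(0-8h)+VC(8-15h) and TSA(0-8h) embryos enter 2 each. A gene entered a test when every embryo of 1 of the groups compared reached 1 RPKM, which 6, 7 and 6 of the 10 members met. A gene that meets this in only 1 of the groups is favoured to be higher there. Cpeb1 met it in control alone, in both comparisons with control. Ybx2 met it in control alone in TSA(0-8h) against control. It met it in TSA(0-8h)+VC(8-15h) alone in the comparison of that group with TSA(0-8h). Zfp36l2 met it in TSA(0-8h) alone in both comparisons with that group. Beside a member's change, the median log2 difference of the genes tested was 0.78 with TSA(0-8h)+VC(8-15h) against control, -0.40 with TSA(0-8h) against control, and 1.20 with TSA(0-8h)+VC(8-15h) against TSA(0-8h). Median-ratio scaling shifted these log2 differences by -0.72, 0.42 and -1.16. Cpeb1, Btg4 and Cnot7 were lower than in control embryos with either scaling. Eif4e1b was too, but it was chosen for this in TSA(0-8h)+VC(8-15h) embryos.

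In TSA(0-8h)+VC(8-15h) against control embryos, limma called 0 of 3323 genes at an adjusted p under 0.05 (0%), and 587 had an unadjusted p under 0.05. None of the other 5 members tested beside Eif4e1b was called. Cpeb1 was the 1 of these with an unadjusted p under 0.05. Of these 5, Cpeb1, Btg4 and Cnot7 were lower without overlap between the groups and 0 were higher, where 5.72% of the genes tested were lower and 15.6% higher. With no filter and without Eif4e1b, the 7 members above 0 had a median of -1.22, and the median over all genes was 0.02. Many of all genes lie near 0, so their median is no baseline for the members. Two-cell markers, at 342 to 619 RPKM in sum against 7.58 to 317 in control, also did not overlap, and their part in these values was not tested. Single markers did not all follow the sum. Zscan4c, Zscan4d and Zscan4f were at 26.2, 29.4 and 32.2 RPKM in control replicate 3, above all other embryos, and at 0 in control replicates 1 and 2.

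In TSA(0-8h) against control embryos, 0 of 2490 genes passed (0%), and 371 had an unadjusted limma p under 0.05. Of the 7 members tested, 0 passed, and Btg4 and Cpeb1 had an unadjusted p under 0.05. Btg4, Cnot7 and Cpeb1 were lower without overlap and 0 members were higher, where 11.8% of the genes were lower and 6.59% higher. Eif4e1b differed by -0.98 on the log2 scale (SE 0.57, adjusted p = 0.463), with the control embryos that had a part in its choice. Inside the pools its log2 difference was -0.29, -2.39 and -0.27, and without TSA(0-8h) replicate 2 the change was -0.27.

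In TSA(0-8h)+VC(8-15h) against TSA(0-8h) embryos, 0 of 3140 genes passed (0%), and 573 had an unadjusted limma p under 0.05. Of the 6 members tested, 0 passed and 0 had an unadjusted p under 0.05. Btg4 was higher without overlap, where 18.2% of the genes were, and 0 members were lower, where 3.44% were. Eif4e1b differed by -0.82 on the log2 scale (SE 0.62, adjusted p = 0.543), with the treated embryos that had a part in its choice. Inside pools 1, 2 and 3 the difference was -2.003, 0.64 and -1.11. It was -2.15 with median-ratio scaling (adjusted p = 0.106) and -1.53 without TSA(0-8h) replicate 2 (adjusted p = 0.201), neither passing the limma test.

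**Figure D3:**
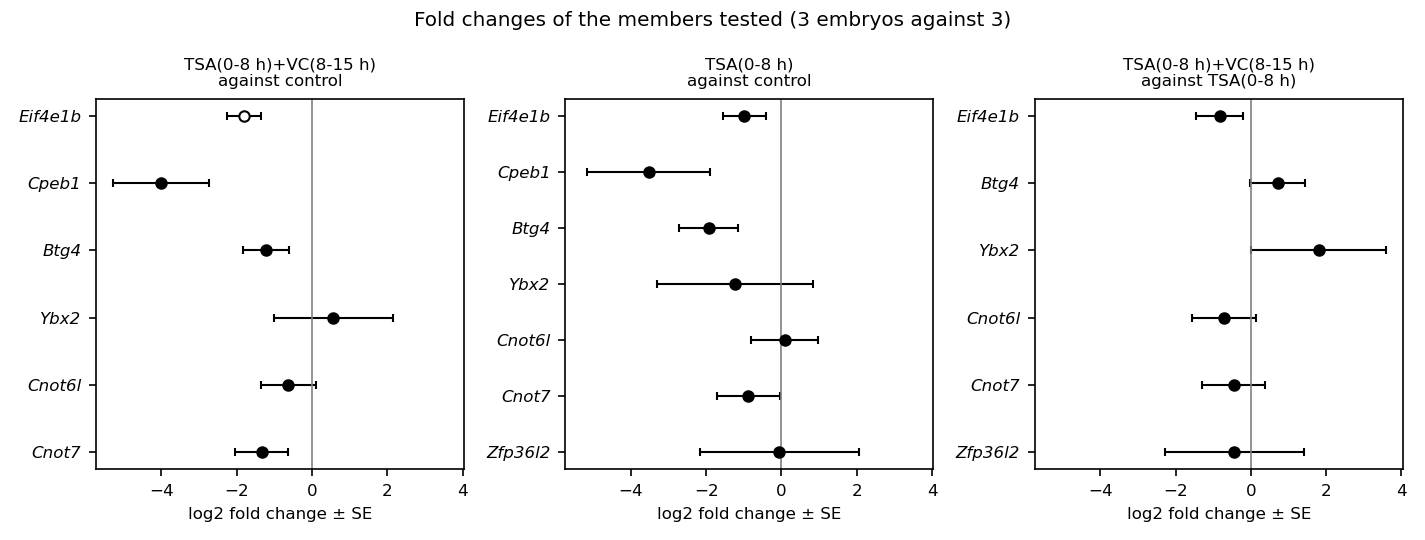
Log2 fold change on the log2(RPKM + 1) scale, with its standard error from limma, for the members tested in each of 3 comparisons of 3 embryos with 3. The open point is Eif4e1b in the comparison it was chosen on, which has no test. Cpeb1, which entered through the control group alone, has the lowest values, -4.02 and -3.53. No filled point passed an adjusted p of 0.05.

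Over all 6 treatments, the limma F-test called 0 of 7600 genes (0%), with 357 at an unadjusted p under 0.05. Of the members tested, 0 were called and 0 had an unadjusted p under 0.05, Eif4e1b left out. The effect of VC(8-15h) with TSA(0-8h) minus its effect without TSA was tested in the same 14 embryos. It was called in 0 of 7600 genes (0%), with 352 at an unadjusted p under 0.05. Btg4 was the 1 member among these, with a difference of effects of 2.79 on the log2 scale (SE 1.24), at an unadjusted limma p of 0.0311 and an adjusted p of 0.902.

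Other genes of these pathways were taken from a list of 75, written with earlier results of these data known. It holds CCR4-NOT subunits and adaptors, other deadenylases and decapping enzymes, uridylation enzymes, poly(A) factors, cap-binding proteins and RNA-binding regulators. With TSA(0-8h)+VC(8-15h) against control, 40 of the 75 could be tested and 0 passed in either direction, with 4 higher and 3 lower at an unadjusted p under 0.05, beside 462 higher and 125 lower of all 3323 genes. Lower values were seen for Ybx3, a Y-box relative of Ybx2, at 3.76, 2.10 and 38.6 RPKM against 280.2, 302 and 376 in control (log2 fold change -5.25, SE 1.26, adjusted p = 0.112, or 0.0392 with a pseudocount of 0.1). Pum2, a Pumilio repressor, was at 101, 79.7 and 387 RPKM against 880.0, 581 and 545 (-2.15, SE 0.73, adjusted p = 0.126). Tob1, an adaptor of CCR4-NOT related to Btg4, was at 13.8, 26.2 and 4.10 RPKM against 0, 1.34 and 0 (3.26, SE 1.09, adjusted p = 0.118). It entered this test through the treated group alone.

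With TSA(0-8h) against control, 33 of the 75 were tested and 0 passed, with 1 higher and 5 lower at an unadjusted p under 0.05, beside 136 and 235 of all 2490 genes. Cnot8, a deadenylase closely related to Cnot7, was at 28.8, 23.6 and 58.0 RPKM against 130.1, 559 and 192 (log2 fold change -2.78, SE 1.27, adjusted p = 0.292). Cnot2, a scaffold subunit of the complex, was at 0.123, 10.9 and 0.284 RPKM against 50.9, 30.2 and 91.3 (-4.36, SE 2.01, adjusted p = 0.296). Tut7, a uridylation enzyme, was at 1.37, 0.138 and 0.0153 RPKM against 4.48, 44.5 and 3.19 (-2.86, SE 1.14, adjusted p = 0.219). These 3 were picked for their small p-values, and their groups did not overlap. Of the list genes tested, 6 were lower without overlap, where 11.8% of all genes tested were. Cnot2 and Tut7 entered the test through the control group alone.

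With TSA(0-8h)+VC(8-15h) against TSA(0-8h), 39 of the 75 were tested and 0 passed, with 5 higher and 1 lower at an unadjusted p under 0.05, beside 505 and 68 of all 3140 genes. Tob1 was at 13.8, 26.2 and 4.10 RPKM against 0.145, 0.112 and 0.372 (log2 fold change 3.40, SE 0.94, adjusted p = 0.0739). Xrn1, an exonuclease that degrades decapped mRNA, was at 11.7, 1.08 and 15.4 RPKM against 0.0602, 0.0465 and 0.0309 (2.86, SE 0.81, adjusted p = 0.0765). Elavl1, which binds AU-rich mRNA, was at 29.2, 32.5 and 7.01 RPKM against 0.110, 0 and 1.57 (3.82, SE 1.17, adjusted p = 0.0891). With a pseudocount of 0.1, Tob1 and Xrn1 passed, at adjusted limma p of 0.0299 and 0.00816, and both passed without TSA(0-8h)+VC(8-15h) replicate 2, at 0.0390 and 0.0345. Xrn1 also passed with the replicate block, at an adjusted limma p of 0.0461. Tob1, Xrn1 and Elavl1 entered this test through the TSA(0-8h)+VC(8-15h) group alone, and such a filter favours a rise. The other group was near 0 for Tob1 and Xrn1, where a pseudocount of 0.1 widens the difference. Neither passed with a filter blind to the groups. The median over the list with no filter was 0.55, -0.13 and 0.70 in the 3 comparisons in this order, and over all genes 0.02, -0.03 and 0.07. Many of all genes lie near 0, which holds their median near 0, so it is no baseline for the list. Over the genes that passed the filter, the medians were 0.78, -0.40 and 1.20.

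**Figure D4:**
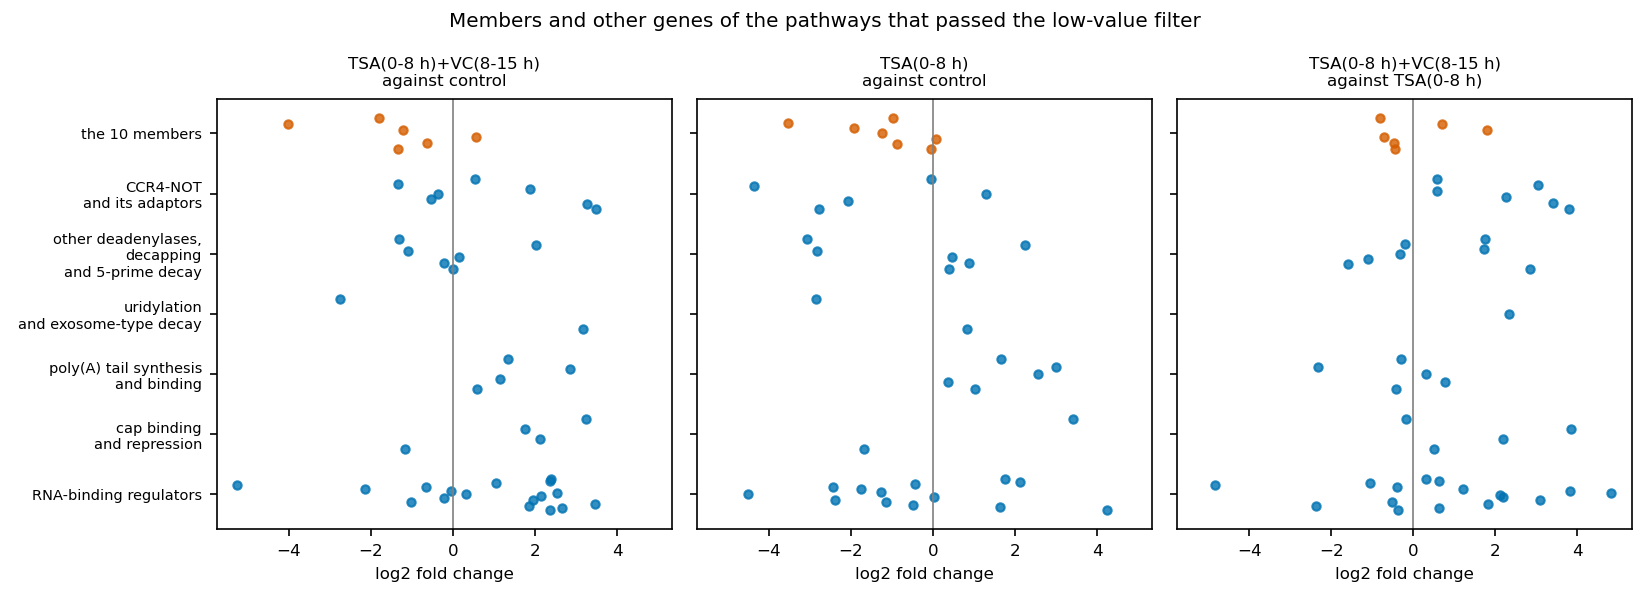
Log2 fold change, on the log2(RPKM + 1) scale, of each member (top row) and of each pathway gene by list (other rows) that passed the filter on low values, in 3 comparisons. Each point is 1 gene, and 0 of them passed an adjusted p of 0.05 at the pseudocount of 1. The lowest point in the first panel is Ybx3, at -5.25.

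The members varied together only in part. Among the 36 pairs of the 9 members above 0, the median Pearson correlation of log2(RPKM + 1) over 14 embryos was 0.12, beside 0.05 over all pairs of 5502 genes with a mean of 10 RPKM or more. The highest were 0.65 for Cpeb1 with Btg4, 0.57 for Cnot6l with Cnot7 and 0.54 for Cpeb1 with Cnot7. These points share pools and library depth, and the values are descriptions. Within treatments, the standard deviation on the log2 scale was 0.61 for Btg4, 0.96 for Eif4e1b and 1.02 for Cnot7, beside a median of 2.34 for the genes with a mean of 10 RPKM or more. It was 3.15 for Ybx2 and 2.64 for Zfp36l2. The median of 2.34 covers genes of any level from 10 RPKM up, so it is not matched to these genes in level. The value for Eif4e1b includes the embryos it was chosen on.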

How the data were processed

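RNA of 14 single SCNT embryos was sequenced as single-end reads, which the authors filtered and trimmed, mapped to mm9 with TopHat2 and counted over exons of each RefSeq transcript. The authors deposited these counts as RPKM, scaled to total reads and transcript length, for 25650 entries. The submitters' notes name mm9 and TopHat2, and the strand setting and the treatment of reads shared by entries are not given in the sources used here.

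Groups and replicate numbers came from the sample labels, and pools from the library identifiers. The 10 members, the pathway list and the markers were chosen with earlier results of these data known. Entries of 1 symbol were summed. Genes with at least 1 RPKM in every embryo of 1 of the compared groups were tested with limma 3.58.1 (R 4.3.3) on log2(RPKM + 1), with eBayes and a trend, and p-values were adjusted by Benjamini-Hochberg over all genes tested at a threshold of 0.05. The study's edgeR test needs counts and was not used. The F-test and the difference of the VC effects used all 14 embryos and genes at 1 RPKM in any 3 of them. A two-sided exact permutation test served Eif4e1b, in embryos its choice did not use. Pathway genes were named if they passed, or had 1 of the 3 smallest unadjusted p-values in a comparison. The study's text describes the TSA(0-8h)+VC(8-15h) embryos as made in separate nuclear transfer experiments. The labels do not say which embryo belongs to which experiment, so p-values measure the spread between these embryos.

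RPKM values of 1 library rise in steps of 1 read, from which each embryo's reads were worked back. Of 14532 entries tried, 99.99% came out at whole reads within 0.001 reads. The step method did not return every total in a first set of simulated libraries with few entries of 1 read, some falling below the truth, and returned all in a second set written afterwards with more low entries. In the real files, reads summed over entries were 99.66% to 99.95% of the recovered totals. Floors of 3 reads cover counting error only. The fits were also run on simulated data with less spread than the median of 2.34 within treatments here, so those runs give no measure of power. The alternatives were a pseudocount of 0.1, other filters on low values, median-ratio scaling, a replicate block, all 14 embryos in 1 fit, the entry with the highest mean, and each embryo left out in turn with the genes tested held fixed. UTR and gene coordinates are those of GENCODE on mm9.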

Additional observations from a re-analysis of the deposited data

How the results depend on the processing

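The number of members called stayed at 0 in the 5 tests under 73 of 74 alternatives. Eif4e1b was left out of this count in the comparison it was chosen on, the F-test and the difference of the VC effects. The exception was the F-test with no filter on low values, which called 1 member, Pabpn1l, whose reads lie almost all in the 1 embryo of the VC(0-8h) group. The replicate block called 0 members in each of the 5 tests, while all genes called by limma rose from 0 to 7, 5 and 153 in the 3 comparisons of 3 with 3. In the 3 groups of 3, same-numbered embryos share a pool, but their deviations from group means correlated by only -0.05 to 0.05, so the number was not taken as a pairing. With a pseudocount of 0.1, 107, 100 and 172 genes were called, and 0 members in the count described above. Eif4e1b was among the 107 genes, in the comparison it was chosen on, so this is no test of it. Of the 75 pathway genes, Ybx3, Tob1 and Xrn1 passed in 1 comparison each under an alternative of a comparison of 3 with 3, and Dcp1b and Patl2 in the F-test with no filter.

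Of 247 refitted fold changes of members, 18 changed sign, none of them passing an adjusted p of 0.05, and the cause was not tested. With median-ratio scaling, Ybx2 was at -0.089 in TSA(0-8h)+VC(8-15h) against control, Btg4 at -0.61 in TSA(0-8h)+VC(8-15h) against TSA(0-8h), and Zfp36l2 at 0.076 in TSA(0-8h) against control, where a pseudocount of 0.1 gave 0.64. With each embryo left out in turn, values spanned, in TSA(0-8h)+VC(8-15h) against control, -1.77 to 2.16 for Ybx2. In TSA(0-8h) against control they spanned -3.57 to 0.75 for Ybx2, -0.67 to 0.84 for Cnot6l and -1.74 to 1.44 for Zfp36l2. In TSA(0-8h)+VC(8-15h) against TSA(0-8h) they spanned -0.19 to 3.74 for Ybx2, -1.47 to 0.040 for Cnot6l and -1.56 to 1.04 for Zfp36l2. Eif4e1b in the 8 embryos its choice did not use changed from 0.40 to -0.48 with median-ratio scaling and spanned -0.31 to 0.83 with each embryo left out, none passing the permutation test. Cpeb1, which entered through control alone, Btg4 and Cnot7 were below control in all alternatives of both comparisons with control. Eif4e1b was too, but it was chosen for this in TSA(0-8h)+VC(8-15h) embryos, and the alternatives refit the embryos of that choice. The groups did not overlap for Cpeb1, Btg4 and Cnot7, so only the scaling and the choice of entry could have changed their sign. Depth limits low values: 3 reads are worth up to 0.319 RPKM for Cpeb1, 0.635 for Ybx2, 0.789 for Zar1 and 0.868 for Pabpn1l.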
